A study of Ovis aries with 6 samples.

Results

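The growth factor VEGFA, the selectins SELE and SELP, and the receptors EDNRA and AGTR1 are 5 genes that act at the wall of blood vessels, measured here in sheep skin. They were taken as every non-control array probe whose accession is a sheep RefSeq transcript of one of them. That gave 9 probes of 15008 on the array, for 5 of the 476 genes that could be named. Of the 9 probes, 8 passed the filter on dim probes and were among the 13278 tested.

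Skin of 3 Aohan fine wool sheep, 1 ram and 2 ewes aged 12 months that had the same sire, was hybridised to single-colour Agilent arrays. Each animal gave full-thickness skin from the wool-bearing body side (3 arrays) and from the groin, which bears no wool (3 arrays). The labels name no treatment or engineered allele, and the same 3 half-sib animals gave both sites. Whole skin mixes epidermis, follicles, glands, dermis and vessels, so fewer cells of a type and less RNA per cell cannot be told apart in any value below. The study's title places the comparison in the growth phase (anagen) of wool.

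VEGFA is a secreted factor that drives endothelial cells to divide, to form new capillaries and to become leaky, and in mouse skin the growing hair follicle is a known source of it. SELE and SELP are adhesion molecules of activated endothelium that slow passing leukocytes so that they roll along the vessel wall. SELP is also stored in platelets. EDNRA, the type A receptor for endothelin, and AGTR1, the type 1 receptor for angiotensin II, sit mainly on vascular smooth muscle, where their ligands cause contraction.

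The arrays set limits on any comparison of the sites. The body side arrays were read in 1 scan and the groin arrays in another, so an effect of the scan and one of the site cannot be told apart. The body side arrays were also dimmer, with 75th percentiles of the processed signal from 1103 to 2048, against 3677 to 4401 on the groin arrays. The log2 difference of these percentiles was -1.57 (two-sided exact permutation p = 0.1, which is as low as 3 arrays a site can give). To allow for this, the 75th percentile of an array was subtracted from each of its log2 signals, and the result is called a level here. Differences are body side minus groin on the log2 scale, "rose" and "fell" describe the body side relative to the groin, and a probe was called at a Benjamini-Hochberg adjusted p under 0.05 in limma. Over all tested probes 69.9% were called, 37.0% higher and 32.8% lower on the body side.

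Read by the brightest tested probe of each gene, VEGFA, SELE and SELP fell, EDNRA rose and AGTR1 did not pass the threshold. The second EDNRA probe fell, and VEGFA lay above 0 under one background correction described below. That is 3 of 5 genes lower and 1 of 5 higher. The median difference over the 5 genes was -0.69, against 0.10 over all tested probes. With 32.8% of all probes lower, 3 of 5 is no result about these genes as a set, and VEGFA passed the filter only through the groin, where it is brighter. By probe, 6 of the 8 tested were called lower and 1 higher. Of the 6 member probes well above background on all 6 arrays, 4 were called lower and 1 higher, where 28.0% of such probes were lower and 45.4% higher. The groups of arrays did not overlap for 7 of the 8, where 35.5% of all probes with 6 values lay wholly lower and 39.7% wholly higher on the body side.

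**Figure D1:**
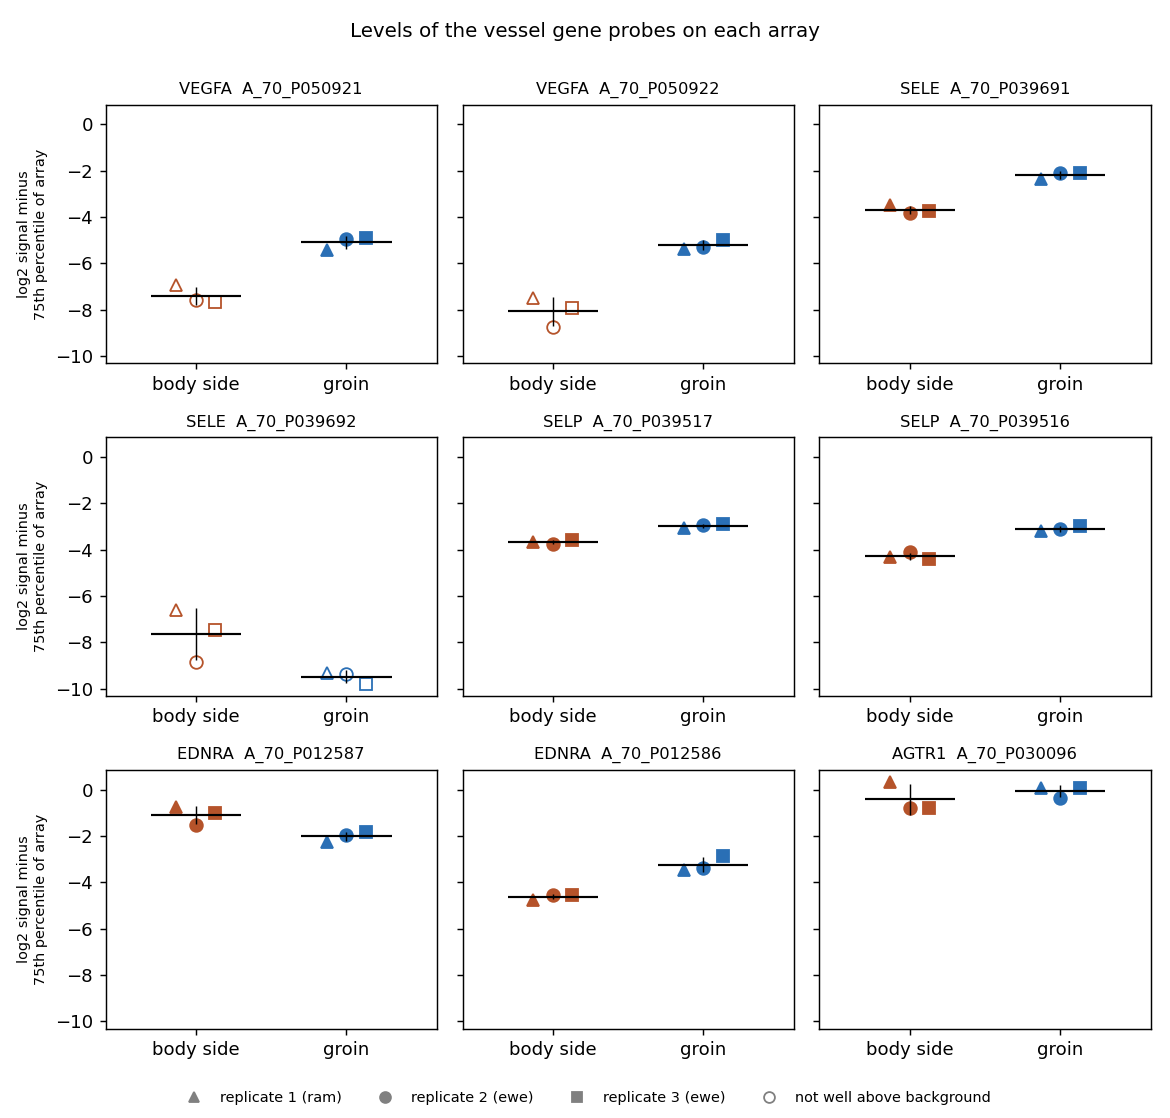
Levels of the 9 probes (log2 units relative to the 75th percentile of each array, vertical axes) on the 3 body side and 3 groin arrays, with the mean (horizontal line) and SD (vertical line). Open points are not well above background. The sites overlap for AGTR1 and are apart for the other tested probes, and the 2 EDNRA probes lie in opposite order.

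VEGFA, the growth factor, was well above background in the groin alone. Its brighter probe, A_70_P050921, was well above background on 3 of 3 groin arrays and on 0 of 3 body side arrays. The processed signals were 8.91, 10.8 and 5.53 on the body side, against 86.1, 135 and 148 in the groin. The scanner software gave those body side signals errors of 8.76, 3.35 and 5.43, against 9.89, 14.9 and 15.4 for the groin, so that 2 of the 3 body side signals were about as large as their own error. Before background subtraction the spot medians were 65.0, 68.5 and 60.0 over local backgrounds of 45.0, 45.0 and 44.0 on the body side, against 167, 183 and 233 over 62.0, 51.0 and 56.0 in the groin. A body side spot of VEGFA thus lay close to its surroundings, while a groin spot was plainly brighter than its own.

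Scaled, VEGFA had levels of -6.95, -7.57 and -7.68 on the body side, against -5.42, -4.95 and -4.89 in the groin. The groups did not overlap, and the lowest level that counted as well above background on the 3 body side arrays was -5.39, -7.10 and -5.68. Set against that floor, the groin was 1.96-fold higher, a figure with no test of its own. The measured difference was -2.31 ± 0.25 SE (limma adjusted p = 1.13e-04). Such a floor-based fold sets the mean of the groin arrays against 1 value for each body side array. That value is the higher of the probe's own level and the lowest level of any probe well above background there. The fold is not a strict lower limit, since a probe above the floor can still fail the background flag. ICAM1, with levels of -4.77, -4.14 and -4.57, was well above background on only 2 of 3 body side arrays. In the ram the groin level of VEGFA, -5.42, was itself below the body side floor, -5.39. The second VEGFA probe, A_70_P050922, was also well above background on the groin arrays only, with processed signals of 6.03, 4.81 and 4.60 on the body side, against 89.2, 107.5 and 140 in the groin. By the same rule its groin signal was 1.81-fold that of the body side. The measured difference of this probe was -2.86 ± 0.30 SE (limma adjusted p = 1.10e-04).

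The VEGFA result depended on how background was removed. With normexp correction, which models background and then adds an offset of 50 to every spot, the brighter probe differed by 0.15 (limma adjusted p = 0.547) and the dimmer by 0.20 (adjusted p = 0.445). With the offset lowered to 1, a setting added after the data were seen, they differed by -1.09 and -0.91 and were both called lower. The floor-based folds were computed on the processed signal alone, and fold changes as large as the measured difference would give are not stated for VEGFA.

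SELE, a selectin of activated endothelium, fell. Its probe A_70_P039691 had levels of -3.48, -3.82 and -3.73 on the body side, against -2.37, -2.10 and -2.08 in the groin. All 6 values were well above background, every body side array lay below every groin array, and the spread within a site was small. The body side averaged -3.68 ± 0.17 and the groin -2.18 ± 0.16 (SD, n = 3 each), a 2.82-fold higher signal in the groin (difference -1.50 ± 0.18 SE, limma adjusted p = 1.81e-04). The call held under every alternative processing run, with differences from -3.07 without scaling between arrays to -0.78 with normexp. The other SELE probe, A_70_P039692, was well above background on none of the 6 arrays, with processed signals from 4.43 to 11.3 on the body side and from 4.93 to 6.40 in the groin. It was not tested, and 1 probe carries the SELE result.

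SELP, the selectin of endothelium and platelets, fell. Its brighter probe, A_70_P039517, had levels of -3.67, -3.75 and -3.56 on the body side, against -3.08, -2.92 and -2.89 in the groin. The sites did not overlap, and the groin was 1.62-fold higher (difference -0.69 ± 0.16 SE, limma adjusted p = 0.00435). The call on this probe ended with normexp (-0.04), with an offset of 1 (-0.30), with quantile normalization (-0.30), median centring (-0.24) and the authors' deposited log2 values (-0.31), and without replicate 3 (-0.71). The second probe, A_70_P039516, had levels of -4.32, -4.11 and -4.41 on the body side, against -3.21, -3.11 and -2.95 in the groin. It differed by -1.19 ± 0.17 SE (2.28-fold higher in the groin, limma adjusted p = 4.25e-04) and was called lower in every alternative run, down to -0.40 with normexp. Both SELP probes thus lay lower on the body side, and the dimmer kept its call in more of the alternatives.

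EDNRA, the endothelin receptor, gave opposite answers by its 2 probes, which carry the same accession. The brighter, A_70_P012587, had levels of -0.75, -1.52 and -1.02 on the body side, against -2.23, -1.95 and -1.83 in the groin. Every body side array lay above every groin array, and the body side was 1.88-fold higher (difference 0.91 ± 0.23 SE, limma adjusted p = 0.00751). The other, A_70_P012586, was printed as 5 spots on each array and had levels of -4.74, -4.54 and -4.55 on the body side, against -3.46, -3.38 and -2.84 in the groin. Here every body side array lay below every groin array, and the groin was 2.61-fold higher (difference -1.38 ± 0.21 SE, limma adjusted p = 5.33e-04). The mean of both probes differed by -0.23 and did not pass (limma adjusted p = 0.295), so no direction is given for the gene.

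Both EDNRA probes were well above background on all 6 arrays. All 5 spots of A_70_P012586 were so on each array. Their processed signals ran from 37.8 to 97.5 over the 3 body side arrays and from 287 to 699 over the 3 groin arrays. The SD among the 5 spots of an array was between 0.11 and 0.20 on the log2 scale. For A_70_P012587, with 1 spot an array, no such spread was measured. The single spot of A_70_P012587 read 658, 715 and 557 on the body side, against 782, 1076 and 1236 in the groin, so its unscaled signal was the lower on the body side and its scaled level the higher. Without scaling between arrays that probe differed by -0.66 (limma adjusted p = 0.0666). The call on it also ended without replicate 1 (0.62, adjusted p = 0.0522), and that on A_70_P012586 ended with normexp (-0.41, adjusted p = 0.0912), where its sign was kept. Which transcripts each probe detects was not tested, since no probe sequences were used here.

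AGTR1, the angiotensin receptor, did not pass the threshold. Its 1 probe, A_70_P030096, had levels of 0.35, -0.79 and -0.79 on the body side, against 0.09, -0.35 and 0.07 in the groin. The body side array of the ram was the highest of the 6 and the body side arrays of the ewes were the lowest, so the sites overlapped. The body side averaged -0.41 ± 0.66 and the groin -0.06 ± 0.25 (SD, n = 3 each), with a difference of -0.35 ± 0.32 SE (limma adjusted p = 0.349). The 95% interval of that difference, from -1.08 to 0.38, lies on both sides of 0. Without the body side array of the ram the difference was -0.73 and was called (limma adjusted p = 0.0103), without replicate 1 at both sites it was -0.65 (adjusted p = 0.0383), and with median centring it was 0.11. It was also called lower with normexp (-0.50, limma adjusted p = 0.0154) and without scaling between arrays (-1.93, adjusted p = 6.48e-04). Without scaling, 70.9% of all tested probes were called lower, with a median difference of -1.47.

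A constant subtracted from the log2 signals of an array cancels in the ratio of probes on it, but background left in a spot does not. Of such ratios, 4 were compared. The log2 ratio of EDNRA A_70_P012587 to A_70_P012586 was 4.0, 3.02 and 3.53 on the body side, against 1.22, 1.43 and 1.01 in the groin. The groups did not overlap, averaging 3.51 ± 0.49 for the body side and 1.22 ± 0.21 for the groin (SD, n = 3 each), a difference of 2.29. Median centring, no scaling and other settings that act on an array as a whole or on the test alone could not change this ratio. In the other alternatives it stayed higher on the body side, by 1.36 with normexp to 2.64 without replicate 2. For SELP the ratio of the brighter to the dimmer probe was 0.65, 0.36 and 0.84 on the body side, against 0.13, 0.19 and 0.06 in the groin, a difference of 0.49 with no overlap. That SELP difference was 0.36 with normexp and ran from 0.35 to 0.65 over the alternatives that could change it.

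The ratio of SELE to the brighter SELP probe was 0.18, -0.07 and -0.17 on the body side, against 0.71, 0.82 and 0.81 in the groin. SELE was thus lower relative to that SELP probe on every body side array, by 0.80 on average. Against the dimmer SELP probe the ratio was 0.83, 0.29 and 0.68 on the body side, against 0.84, 1.01 and 0.87 in the groin, a difference of -0.31 with the nearest arrays almost level. The two-sided exact permutation p was 0.1, the lowest possible, for each of the 4 ratios, and 0.1 after Benjamini-Hochberg adjustment over them.

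**Figure D2:**
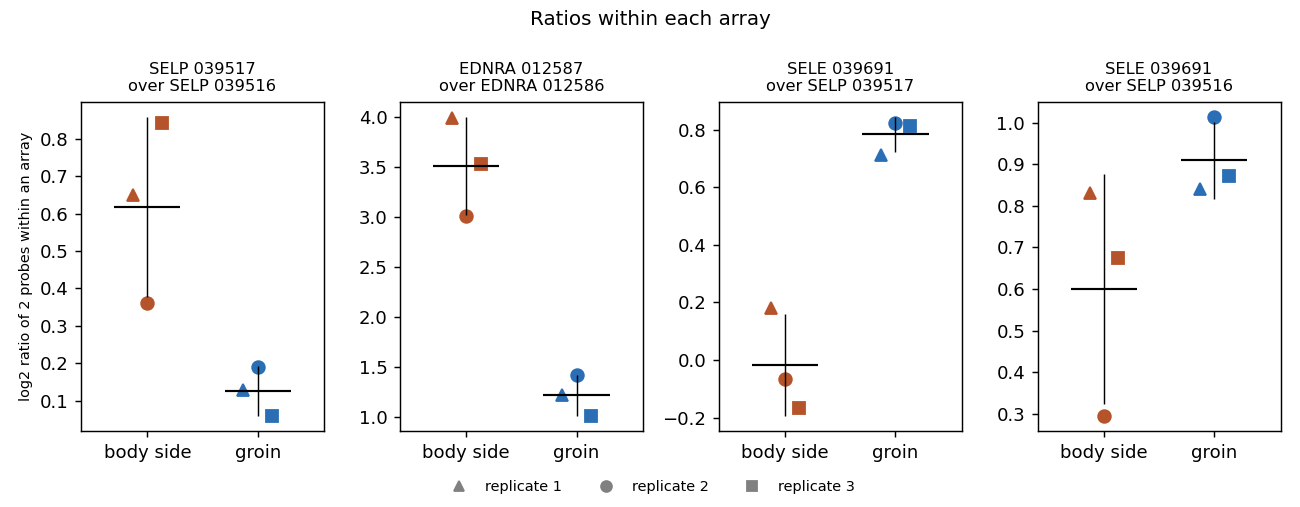
Log2 ratio of 2 probes within each array (vertical axes, each panel with its own scale) for SELP, EDNRA and SELE over SELP, with the mean (horizontal line) and SD (vertical line) of the 3 body side and 3 groin arrays. The EDNRA ratio is 3.02 or more on the body side and 1.43 or less in the groin, and in all 4 panels the sites do not overlap.

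The site difference could be set side by side in the ram and in the ewes, as the ram is known to be replicate 1 at both sites. The brighter VEGFA probe differed by -1.54 in the ram and by -2.70 in the ewes, whose values are the means of 2 arrays a site. No body side signal of VEGFA was well above background, so its sizes in the ram and the ewes are uncertain. SELE differed by -1.12 in the ram and by -1.68 in the ewes, and the brighter SELP probe by -0.59 and -0.75. For EDNRA A_70_P012587 the values were 1.49 in the ram and 0.62 in the ewes, and for AGTR1 they were 0.25 and -0.65. The ram minus ewe difference of the 8 tested probes ran from 0.12 to 1.17, and none passed (limma interaction term, lowest adjusted p = 0.395). Over all probes with an interaction estimate, 0.113% passed. Without scaling between arrays that of SELP was -0.08. With 1 ram, the spread among rams was not measured.

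**Figure D3:**
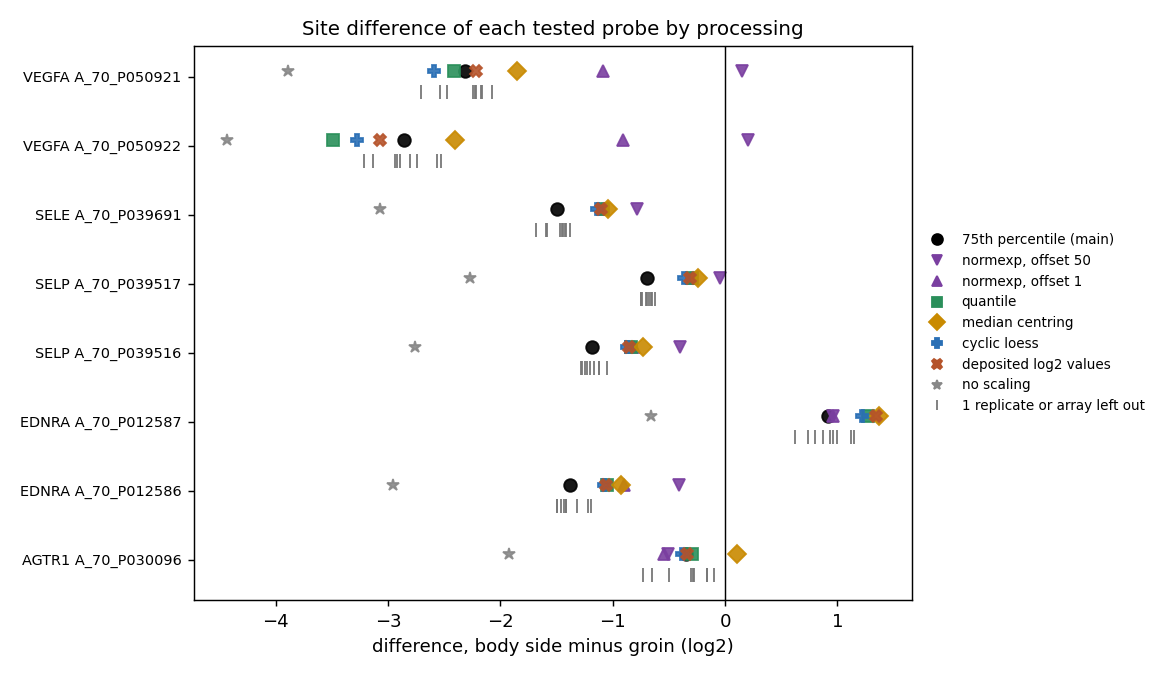
Difference between body side and groin (log2, horizontal axis) of the 8 tested probes under the main scaling and 7 other ways of processing, with ticks for fits without 1 replicate or 1 array. SELE stays below 0 in each, the VEGFA probes cross to 0.15 and 0.20 with normexp at an offset of 50, and AGTR1 crosses to 0.11 with median centring.

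Site differences varied with brightness over the whole array. Among tested probes sorted into 10 equal groups by mean level, the median site difference was -0.40 in the dimmest, which held both VEGFA probes. It was -0.26 in the group that held SELE and the brighter SELP probe, and -0.11 in that of the dimmer probes of SELP and EDNRA. It was -0.40 in the group of the brighter EDNRA probe and -0.13 in that of AGTR1. Of the probes in the group of SELE and the brighter SELP probe 44.0% were called lower, as were 38.7% in that of the dimmer SELP probe and 39.7% in that of VEGFA. In the group of the brighter EDNRA probe 23.5% were called higher. In the brightest group, which held no member probe, the median was 1.14 and 78.3% were called higher.

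Few other genes of these pathways could be named on the array. The counts below are to be read beside the shares of all tested probes, 32.8% called lower and 37.0% higher. No list was tested as a set. Of 31 genes listed for VEGF and angiopoietin signalling, 3 were tested, 2 fell and 1 did not pass. Both that fell, VEGFA and PDGFB, passed the filter only through the groin, where they are brighter, so the count and the median of this list say nothing of its direction. PDGFB, the growth factor that recruits pericytes to new vessels, stood well above background on 0 of 3 body side arrays. Set against the floor used for VEGFA, its groin signal was 2.35-fold higher, with no test of that figure. Its measured difference, which rests on those body side signals, was -2.89 ± 0.23 SE (limma adjusted p = 3.65e-05). With normexp PDGFB was at -0.02 and not called. FGF2, which stimulates endothelial growth, was well above background on all 6 arrays and differed by 0.17 ± 0.17 SE (limma adjusted p = 0.418). KDR and FLT1, the receptors of VEGFA, had no named probe.

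Of 24 genes listed for the adhesion of leukocytes to endothelium, 9 were tested, 5 fell, 2 rose and 2 did not pass, with a median of -0.69. Of those that fell, ICAM1 and ITGAL passed the filter only through the groin, where they are brighter. The count and the median are thus no result about this list. Besides the selectins, ITGB1, an integrin chain, fell (difference -3.32 ± 0.24 SE). ICAM1, which arrests rolling leukocytes, was 3.74-fold higher in the groin (-1.90 ± 0.24), with 2 of 3 body side arrays well above background. CXCL8, a chemoattractant for neutrophils, was 5.53-fold higher on the body side (2.47 ± 0.20). The highest limma adjusted p of these 3 genes was 2.66e-04. The other gene that rose was MADCAM1, the addressin of mucosal vessels, and the other that fell was ITGAL. ITGAL did not stand well above background on any body side array and was called higher with normexp (0.59, limma adjusted p = 0.0281). Second probes of ITGAM (-3.02, not well above background on the body side) and ITGB2 (-0.63) were called lower where the brighter ones did not pass.

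In the endothelin system, 2 of 8 listed genes were tested. EDN1, the ligand of EDNRA, averaged -1.95 ± 0.16 for the body side and -1.32 ± 0.07 for the groin (SD, n = 3 each). It fell by 0.63 on the log2 scale (SE 0.16, limma adjusted p = 0.00823). That call ended with quantile normalization (-0.23), median centring (-0.17), cyclic loess (-0.31) and the deposited log2 values (-0.27), and without replicate 1 (-0.58) or replicate 3 (-0.56). Counted by its brighter probe, EDNRA was the 1 gene of the list that rose.

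In the renin-angiotensin system, 3 of 13 listed genes were tested, of which 2 rose and AGTR1 did not pass. HSD11B2, which inactivates glucocorticoids, rose by 0.82 ± 0.30 SE (limma adjusted p = 0.0387), and its call ended in several alternatives, among them quantile normalization, cyclic loess, the deposited log2 values and the fit without replicate 3. AGT and ACE, the precursor and the converting enzyme of angiotensin, had no named probe.

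Of 59 other vasoactive receptors and mediators, 8 were tested, 4 rose, 2 fell and 2 did not pass, with a median of 0.55. PTGFR, the receptor for prostaglandin F2α, was 3.82-fold higher in the groin (difference -1.93 ± 0.19 SE), and TAC1, the precursor of substance P, 2.59-fold higher there (-1.37 ± 0.24). PTGS2, the inducible cyclooxygenase, was 2.29-fold higher on the body side (1.19 ± 0.19). NPY, a constrictor peptide of sympathetic nerves, was 2.82-fold higher there (1.5 ± 0.24), though its dimmer probe did not pass (0.51, limma adjusted p = 0.286). The highest limma adjusted p of these 4 genes was 0.00108. A dimmer PTGS2 probe, not well above background on the body side, was called the opposite way (-1.38). ADRB3 and OXT, a receptor for noradrenaline and the oxytocin precursor, were the other genes that rose. ADRB3 lost its call in 6 alternatives and OXT in 7, among them normexp with an offset of 1 and the fit without replicate 3 for both genes, and both turned below 0 without scaling.

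Of 14 genes of coagulation and fibrinolysis at the vessel wall, 5 were tested, 3 fell and 2 rose, with a median of -1.0. PLAU, the urokinase that activates plasminogen, fell (difference -1.10 ± 0.17 SE), as did its receptor PLAUR by the main scaling. PLAUR passed the filter only through the groin, where it is brighter. The PLAUR call ended with quantile normalization, median centring, cyclic loess and the deposited log2 values, and without replicate 3 or the groin array of replicate 3. With normexp PLAU was at -0.29 and not called. SERPINC1, antithrombin, rose by 1.35 ± 0.24 SE and ANXA2, a membrane-bound partner of plasminogen, by 0.69 ± 0.16. ANXA2 turned below 0 with quantile normalization, cyclic loess and the deposited log2 values. The highest limma adjusted p of PLAU, SERPINC1 and ANXA2 was 0.00535. Without scaling between arrays, all the genes that rose in these lists were below 0 except CXCL8, at 0.89.

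**Figure D4:**
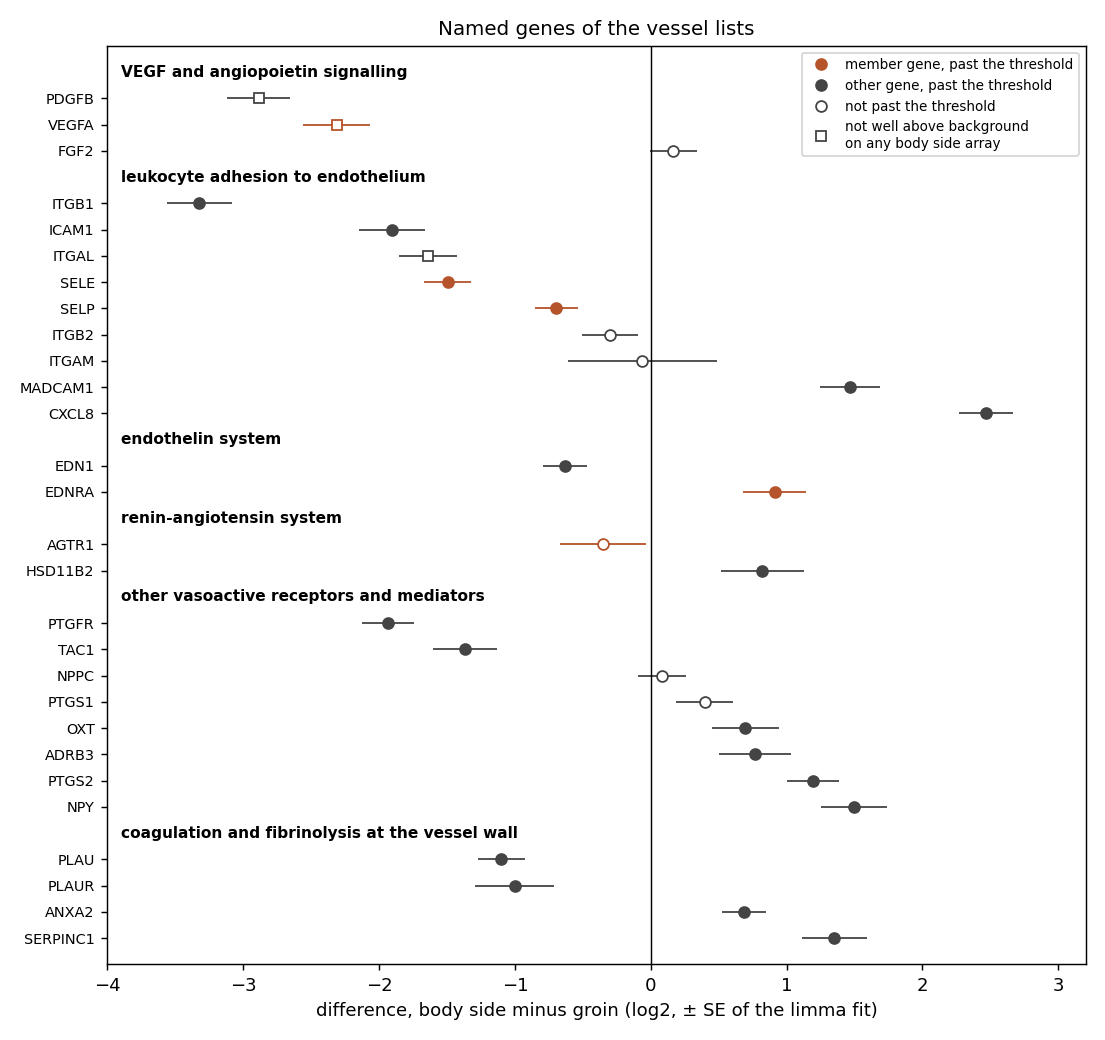
Difference between body side and groin (log2, horizontal axis, ± SE of the limma fit) of 28 of the 30 tested genes of the vessel lists, by the brightest probe of each. Squares mark genes that do not stand well above background on any body side array. Falls and rises occur in 4 of the 6 lists, from -3.32 for ITGB1 to 2.47 for CXCL8.

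The cell types that carry these genes could be checked only in part. Of 18 endothelial markers, AQP1, a water channel of capillaries and red cells, was the 1 with a named probe. It did not stand well above background on any body side array. Set against the floor used for VEGFA, its groin signal was 4.38-fold higher. With normexp AQP1 was at -0.54 and not called (limma adjusted p = 0.124). Of 13 markers of smooth muscle and pericytes, CNN1 alone was tested (-0.35 ± 0.23 SE, limma adjusted p = 0.194), with levels from 3.85 to 4.59 on the body side and from 4.46 to 4.78 in the groin. None of 6 platelet, 5 lymphatic endothelial or 7 keratinocyte markers had a named probe.

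Of the red cell markers HBB rose by 1.70 ± 0.43 SE, a call that ended without scaling between arrays. CA1 was called lower by both probes, with a size that is not given because it stood clear of background on only 1 of 3 body side arrays. All 8 tested wool follicle markers rose, and their mean level ran from 4.28 to 4.74 on the body side and from 1.00 to 1.26 in the groin. Of all tested probes 37.0% were called higher, and of those in the brightest of the 10 groups 78.3%. Of 3 fibroblast markers 2 fell and 1 rose, and of 2 adipocyte markers 1 rose and 1 fell. Of 5 myeloid markers 1 fell and 4 did not pass by their brighter probes, but second probes of CD14 (-0.89), TLR2 (-1.74) and ITGAM (-3.02) were called lower. DCN, the fibroblast marker that rose, turned below 0 with quantile normalization, cyclic loess, the deposited log2 values and no scaling, and its second probe did not pass (0.32, limma adjusted p = 0.145). Both adipocyte calls ended with quantile normalization and the deposited log2 values, among others. The part of cell composition in the differences of the vessel genes was not tested.

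The genes whose levels moved most like each member over the 6 arrays were sought among 434 other named genes, by the root mean square (RMS) difference of levels centred on their own mean. Nearest to SELE were TLR4, the receptor for bacterial lipopolysaccharide (RMS difference 0.07, site difference -1.52), and SLC25A11, a mitochondrial carrier (0.07, -1.52). Nearest to SELP were the cytokine IL18 (0.07, -0.67) and the kinase CDK5 (0.09, -0.77). Nearest to EDNRA by its brighter probe were NPVF, a neuropeptide precursor (0.08, 0.87), and CYP11B1, a steroid hydroxylase (0.11, 1.06, clear of background on 1 of 3 body side arrays). Nearest to AGTR1 were GHRL, the ghrelin precursor (0.17, -0.42, clear of background on 1 of 3 body side arrays), and HOXC6, a gene of body position (0.22, -0.37). VEGFA, whose body side levels were not well above background on any array, had no such close match. The nearest to it were PSMD4, a proteasome subunit (0.32, -2.25), and VDAC1, a mitochondrial channel (0.34, -2.40). These are descriptions over 6 arrays that share the split into 2 sites.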

How the data were processed

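Total RNA of 6 skin samples was labelled with Cy3 and hybridised to 1 array each, per the labels' protocols. The deposited processed signal is an intensity from Agilent Feature Extraction 10.5.1.1, background-subtracted and detrended by that software, per the file headers, and not normalized between arrays. The spot errors and the median spot and background signals (intensity) and the flags came from the same files. A second deposited table holds log2 values from the authors, each column with a median of 8.31, which correlated at 0.999 or more with quantile-normalized log2 processed signals; its background step is not given in the sources used here.

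Outlier-flagged spots were left out, repeated spots averaged on the log2 scale, and the 75th percentile of each array subtracted. Tested probes had all 3 arrays of either site well above background, with at least 2 values per site. The fit was limma 3.58.1 in R 4.3.3, without a block, over 13278 probes, and the steps were tested on simulated data. For normexp the median spot signal was used. Groups and replicate numbers came from the titles; number 1 is the ram at both sites, and which ewe is 2 or 3 is not stated. Probes were named by unversioned RefSeq accession through the gene table of assembly ARS-UI_Ramb_v3.0 (734 of 15008 matched). The files name no build, so no coordinates are given, and no sequences were used here. The brightest tested probe stands for a gene. Named are all members, up to 4 called genes per list by smallest adjusted p (others of 5 or fewer were named after their values were seen), and the 2 nearest profiles per member; some genes that the lists count are not reported here by name. Members and lists were chosen with earlier results of these data known.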

Additional observations from a re-analysis of the deposited data

How the results depend on the processing

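Over the alternatives run, SELE and the dimmer SELP probe kept their direction and call. With normexp (offset 50) VEGFA turned to 0.15 and its dimmer probe to 0.20, SELP was at -0.042 and AGTR1 at -0.50 and called, and 3 member probes rather than 6 were called lower. With normexp at an offset of 1, chosen after seeing the data, SELP was at -0.30 and AGTR1 at -0.55 and called. SELP also lost its call with quantile normalization (-0.30), median centring (-0.24) and the deposited log2 values (-0.31). Its limma adjusted p ran from 1.33e-04 to 0.848 over all alternatives, and that of AGTR1 from 6.48e-04 to 0.861. AGTR1 turned to 0.11 with median centring and was called without scaling (-1.93). EDNRA turned to -0.66 without scaling and to -0.23 as the mean of its probes, and in both cases 0 member genes were called higher; without scaling 0 member probes were. Without the filter on dim probes 2 member probes were called higher, the second being the SELE probe at background. Leaving out 1 replicate or 1 array, differences ran from 0.62 to 1.15 for EDNRA, from -0.75 to -0.63 for SELP and from -0.73 to -0.094 for AGTR1, and 0 or 1 member gene and 0 or 1 member probe were called higher. Without replicate 3, 6564 probes were called in place of 9279. Higher calls made up 53.0% of all calls, 68.5% with median centring, 68.6% with normexp and 1.98% without scaling, where the median of all tested probes was 0.56, 0.46 and -1.47 in place of 0.10. With the replicate number as a block, VEGFA, SELE, SELP and EDNRA kept their calls (-2.31, -1.50, -0.69 and 0.91) and no member call changed; 9211 probes were called. Same-numbered arrays correlated in their deviations from the site means at 0.16, 0.09 and -0.09, and shared numbers were not read as pairs. Scan and site coincide, so no fit with the scan as a term could be made. VEGFA on the body side is limited by signal over background.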
